A study of Mus musculus with 6 samples.

Results

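The tripartite motif (TRIM) genes were followed in a mouse intrahepatic cholangiocarcinoma line, AY-mICC, with and without a knockdown of Copa. Members were all genes of the deposited count table whose mouse symbol is Trim followed by a number and at most 1 letter, with at least 10 counts in 3 or more libraries. This gave 44 members out of 68 genes with such a symbol, in a table of 55414 gene identifiers, and left 24 genes under the count rule. The rule does not use the difference between the groups, but 2 members, Trim71 and Trim69, reached 10 counts only in the shCopa libraries and so entered through the group where they are high. The study compared 3 libraries of shCon cells, labelled control, with 3 libraries of shCopa cells, made from the same line under the same culture medium and with no further treatment. Its title places the comparison in work on the COPI coat and immunity to this tumour. Neither the number of hairpins or clones nor whether the replicates were separate cultures is given in the sources used here, and the p-values then reflect only the spread among these libraries, which may be technical.

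TRIM proteins share a RING finger, 1 or more B-box zinc fingers and a coiled coil, in that order. The RING recruits a ubiquitin-loaded E2 enzyme, which makes most of them E3 ubiquitin ligases. The C-terminal part selects the substrate and sorts the family into classes: a PRY-SPRY domain in the largest class, a PHD finger with a bromodomain in the chromatin regulators, NHL repeats in RNA-binding and neuronal members, and a COS box in members that bind microtubules. Many PRY-SPRY members are transcribed in response to interferon and act in the defence against viruses, some by binding viral capsids and some by ubiquitylating sensors of nucleic acids or their adaptors. The product of Copa is the alpha subunit of COPI, which coats the vesicles that carry proteins from the Golgi back to the endoplasmic reticulum.

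Copa itself was at 420, 517 and 527 CPM (counts relative to the scaled library total) in shCon 1 to 3 and at 186, 182 and 187 CPM in shCopa 1 to 3. It fell to 37.9% of the control level (log2 fold change -1.40 ± 0.11 SE, adjusted p = 0.000149), in the direction of the labels. Library totals ran from 19634938 to 24546204 estimated counts. The library shCon 1 stood apart from shCon 2 and shCon 3 (Pearson's r across genes of 0.973 and 0.972, against 0.990 between shCon 2 and shCon 3 and 0.989 to 0.991 within shCopa). No pair of libraries agreed within sampling noise. The biliary keratin gene Krt19 was at 534 to 622 CPM in shCon and 522 to 556 CPM in shCopa, whereas Epcam was at no more than 0.790 CPM in any library. Of the 8 biliary markers tested, 5 fell, and the summed level of the 9 went from between 11387 and 14465 CPM to between 8498 and 8976 CPM. The 6 macrophage markers summed to 277 to 287 CPM in shCon and 157 to 170 CPM in shCopa. Of the 5 tested, Csf1r (165 to 87.9 CPM) and Cd14 (102 to 50.3 CPM) fell, Ptprc (0.0280 to 1.09 CPM) and Lyz2 (1.46 to 8.21 CPM) rose, and Adgre1, not tested, had no more than 1 count in any library. The 5 hepatocyte markers summed to 8.37 to 13.2 CPM in shCon and 23.0 to 24.2 CPM in shCopa, mostly Alb, which rose from 9.90 to 22.7 CPM; Ttr did not pass, and Cyp3a11 was at 0 throughout. The 5 fibroblast markers summed to 184 to 223 CPM in shCon and 168 to 182 CPM in shCopa, mostly Dcn (202 and 170 CPM on average). Of the 3 tested, Pdgfrb fell (2.26 to 0.706 CPM), and Dcn and Col1a1 (1.19 to 2.27 CPM) did not pass. T cell markers stayed at or under 0.452 CPM in sum. In bulk RNA, a change in the mix of cells and a change in RNA per cell cannot be told apart, and the part of these markers in the results on TRIM genes was not tested.

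More TRIM genes were higher than lower after the knockdown. Of the 44 members, 17 rose, 5 fell and 22 did not pass the test. Of the 42 with 10 counts in libraries of both groups, 16 rose, 5 fell and 21 did not pass. Among the shCon libraries, Trim17 and Trim30b reached 10 counts in shCon 3 only, and Trim66 in shCon 2 only. These genes met the rule through their shCopa libraries, and Trim17 is among the 16 rises, so this count is not free of such entry. Among all 14807 genes tested, 36.5% changed, 18.2% upward and 18.4% downward, whereas 38.6% of the members rose and 11.4% fell. The median log2 fold change was 0.32 over the members and -0.01 over all genes. The shCopa libraries lay above all shCon libraries for 22 members and below them for 7, and the groups overlapped for 15. Over all genes the groups did not overlap for 54%, with shCopa above for 27.2% and below for 26.9%. The summed level of the 44 members was 2024, 2126 and 2134 CPM in shCon and 2574, 2564 and 2650 CPM in shCopa, with no overlap. Without shCon 1, 22 members rose and 6 fell, at a background of 55.3% of genes changed, 28.3% higher and 27% lower, and every member called with all 6 libraries kept its call. Without shCopa 2, 11 members rose and 4 fell. The share of all genes in that fit is not given here, so the lower count shows no change particular to the members.

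**Figure D1:**
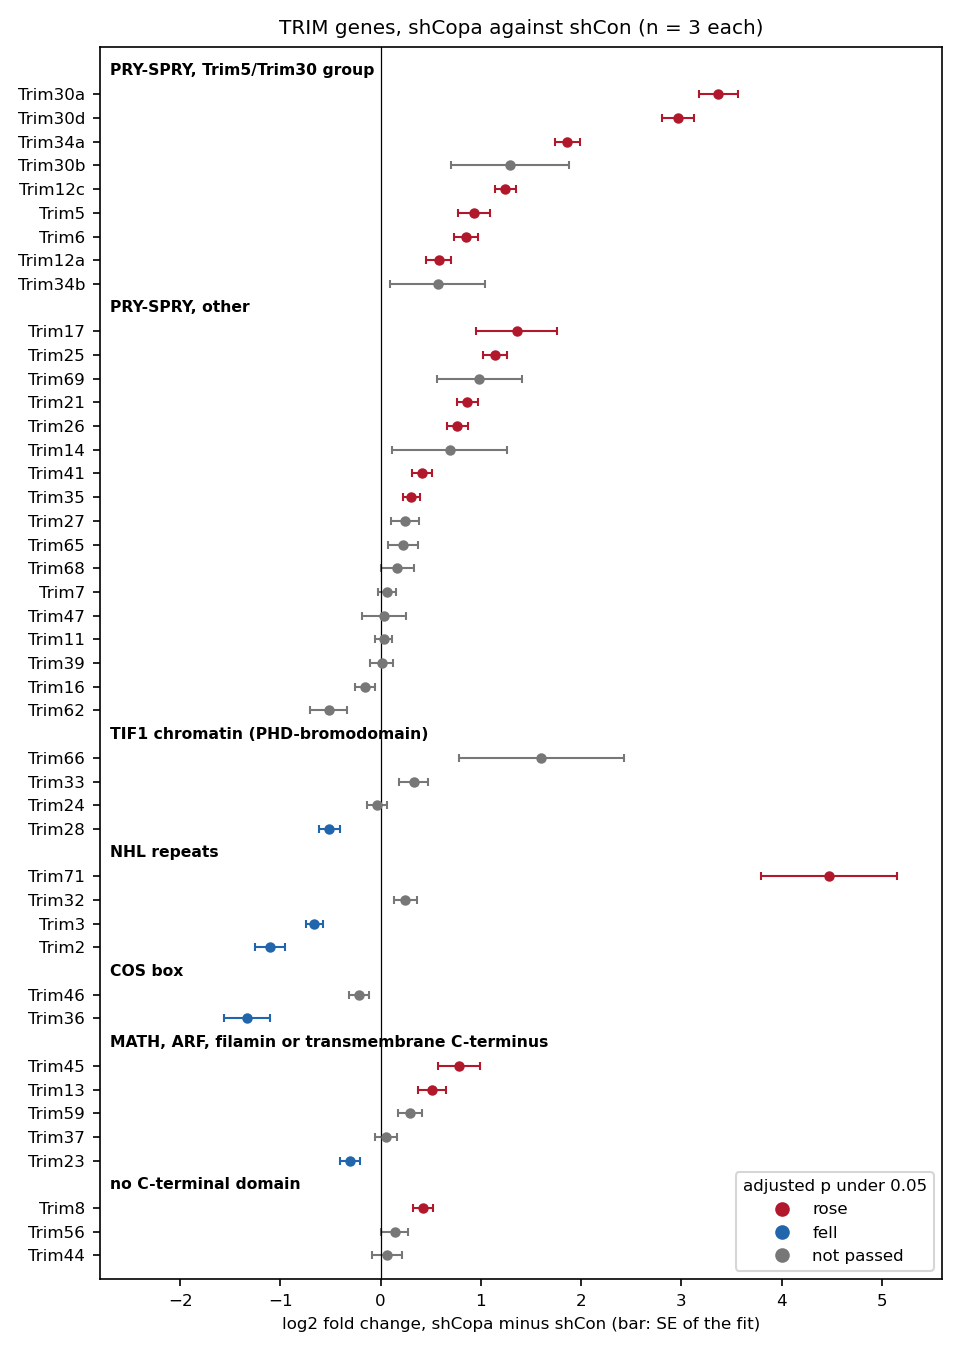
Log2 fold change of each TRIM member (shCopa minus shCon, fitted over 3 libraries a group; bars, SE), grouped by C-terminal class and coloured by call at an adjusted p under 0.05. The Trim5/Trim30 group holds 7 of the 17 members that rose and none that fell, and the falls lie in the classes named for chromatin, NHL repeats, COS box and the ARF domain.

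Each member was placed in a single class, so COS-box members such as Trim36 were not counted as PRY-SPRY, whatever other domains they carry. By these classes, the genes filed as PRY-SPRY gave 13 of the 17 rises and no fall. In the Trim5/Trim30 group, a run of PRY-SPRY genes on chromosome 7, 7 of 9 tested members rose (77.8%, against 18.2% of all genes), with a median log2 fold change of 1.24. In the other 17 PRY-SPRY members, 6 rose (35.3%) and 11 did not pass (median 0.25). The remaining classes hold 4 chromatin, 4 NHL-repeat and 2 COS-box members, 3 without a C-terminal domain and 5 with other C-termini. They gave 4 rises and 5 falls, where 18.2% of all genes rose and 18.4% fell. No difference from all genes is read from counts this small. Of 16 members known for interferon induction or antiviral action, whatever their class, 10 rose (62.5%), none fell and 6 did not pass (median 0.90). Outside that list, 7 of 28 rose (25.0%) and 5 fell (17.9%), with a median of 0.06, near the 18.2% and 18.4% of all genes. The list was drawn up with earlier results of these data known, so its count is no independent evidence of a direction. Without shCon 1 the same count was 10 of 16, and that of the Trim5/Trim30 group 7 of 9.

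Promoter windows of 6 of the 9 members are shown, because they hold a motif of interferon-responsive genes; Trim6, Trim30b and Trim34b held no match. Sequences are from RefSeq (build GRCm38.p6), are written 5′ to 3′ on the strand of the gene, and carry in capitals the match to the core of the interferon-stimulated response element (ISRE), the DNA motif read by transcription factors of the IRF family. The ISRE core searched was GAAANNGAAA, or TTTCNNTTTC on the other strand, in a window of 250 bases before to 50 bases after each annotated start. Windows of 30 bases around the match are given for the members of the group that hold one.

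Trim30a, chr7:104465210-104465239, minus strand: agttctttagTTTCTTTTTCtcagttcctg
Trim30d, chr7:104507871-104507900, minus strand: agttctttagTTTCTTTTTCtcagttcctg
Trim34a, chr7:104244457-104244486, plus strand: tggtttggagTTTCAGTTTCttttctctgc
Trim12c, chr7:104353359-104353388, minus strand: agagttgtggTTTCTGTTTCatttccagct
Trim5, chr7:104288136-104288165, minus strand: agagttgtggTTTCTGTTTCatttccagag
Trim12a, chr7:104315466-104315495, minus strand: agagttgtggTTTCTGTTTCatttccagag

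The windows fall into 3 types. Trim30a and Trim30d carried the same 30 bases, as did Trim5 and Trim12a, and Trim12c shared their core. The match lay at -36 to -27 from the start of Trim30a and at -41 to -32 from that of Trim30d, counting the base before the start as -1. It lay at -29 to -20 in Trim12c and at -49 to -40 in Trim5, and just past the start, at 11 to 20, in both Trim34a and Trim12a. A second annotated start of Trim30a had a match at 3 to 12. The likeness of the Trim30a and Trim30d promoters extended past the motif: over the 100 bases before the start, alignment gave 94 identities, 1 mismatch and 10 gap positions.

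Trim30a, chr7:104465194-104465293, minus strand: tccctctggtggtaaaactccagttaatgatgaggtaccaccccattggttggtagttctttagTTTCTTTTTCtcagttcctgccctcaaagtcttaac
Trim30d, chr7:104507850-104507949, minus strand: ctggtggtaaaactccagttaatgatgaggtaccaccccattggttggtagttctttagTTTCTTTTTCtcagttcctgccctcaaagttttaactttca

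Outside this group, the motif was found in 3 more members. In Trim21 and Trim26 a pair of matches overlapped, so that the capitals run over more than 1 core.

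Trim21, chr7:102565447-102565476, minus strand: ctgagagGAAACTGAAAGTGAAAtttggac
Trim26, chr17:36836979-36837008, plus strand: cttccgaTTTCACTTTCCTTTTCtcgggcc
Trim2, chr3:84212791-84212820, minus strand: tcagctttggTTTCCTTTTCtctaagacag

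The table held a promoter for 34 of the 44 members, and 9 of these (26.5%) matched the ISRE core. Of all genes with a promoter in RefSeq's list, 3.99% matched, and so did 3.44% of all promoters of that length. The match was present in 8 of 14 members that rose (57.1%) and in none of 17 that did not pass. Of 3 that fell, 1 held it, Trim2, in 1 of its 5 annotated promoters. Of the 8, 6 belong to the Trim5/Trim30 group, most of whose windows share bases, and the others are Trim21 and Trim26. These 6 are not independent of each other, so neither the 57.1% nor the 26.5% is a share of unrelated promoters. Over all tested genes, 5.84% of those that rose, 3.16% of those that fell and 3.30% of those that did not pass held the motif. Trim6, Trim13, Trim25, Trim41, Trim45 and Trim71 rose with no ISRE match in this window, which says only that these letters are not there. Trim8, Trim17 and Trim35 rose and had no promoter to search. Another motif, the core of the gamma-activated site (GAS), TTCNNNGAA, was searched in the same windows. It matched 2 of the 34 members (5.88%), against 9.55% of all genes with a promoter. Of the 14 members that rose, 1 held it (7.14%), against 9.14% of all tested genes that rose. A match is a description of the sequence and not evidence of binding.

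Trim30a (ENSMUSG00000030921), an interferon-induced PRY-SPRY ligase that restrains NF-kB signalling by degrading Tab2 and Tab3, had the largest rise among members with more than a few counts. Its level was 9.48, 14.6 and 15.2 CPM in shCon 1 to 3 and 136, 121 and 150 CPM in shCopa 1 to 3. The groups were far apart, and the lowest value was that of shCon 1. The change was 10.3-fold (log2 3.37 ± 0.20 SE, adjusted p = 5.91e-05). Trim30d (ENSMUSG00000057596), its near neighbour, was at 2.97, 3.82 and 3.49 CPM in shCon against 25.9, 23.9 and 30.8 CPM in shCopa. This was a 7.82-fold rise (log2 2.97 ± 0.16 SE, adjusted p = 4.61e-05), again with wide separation between the groups. The other copies of the Trim30 type were barely expressed. Trim30b had 2, 9 and 18 counts in shCon against 17, 22 and 27 in shCopa, which did not pass the test (log2 1.29 ± 0.59 SE, adjusted p = 0.129). Only without shCon 3, of the libraries left out in turn, did it pass (log2 2.03, adjusted p = 0.0488). Trim30c, under the count rule and not tested, had no counts in shCon against 4, 4 and 1 in shCopa.

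Trim34a (ENSMUSG00000056144), whose human counterpart acts with TRIM5 on retroviral capsids, was at 10.4, 12.4 and 12.4 CPM in shCon against 40.1, 40.1 and 47.6 CPM in shCopa, a 3.63-fold rise (log2 1.86 ± 0.13 SE, adjusted p = 8.83e-05). The mouse genes related to human TRIM5, a restriction factor that binds incoming retroviral capsids, are Trim5, Trim12a and Trim12c, and each rose. Trim12c (ENSMUSG00000057143) went from 41.4, 47.5 and 48.6 CPM to 113, 100.02 and 113 CPM (2.37-fold, log2 1.24 ± 0.10 SE, adjusted p = 0.000179). Trim5 went from 10.1, 12.2 and 14.2 CPM to 25.6, 20.7 and 23.4 CPM (1.91-fold, log2 0.93 ± 0.16 SE, adjusted p = 0.00333). Trim12a showed the smallest rise of the group, from 44.6, 56.0 and 59.5 CPM to 82.9, 75.9 and 80.7 CPM (1.49-fold, log2 0.58 ± 0.12 SE, adjusted p = 0.00881). In none of the 3 did a shCopa library reach down to a shCon library. Trim6, which makes free ubiquitin chains that activate the kinase Ikbke, was at 11.4, 14.1 and 12.5 CPM in shCon against 21.9, 22.1 and 24.7 CPM in shCopa (1.81-fold, log2 0.85 ± 0.12 SE, adjusted p = 0.00170). Trim34b, with 7, 10 and 17 counts in shCon against 18, 9 and 20 in shCopa, did not pass (log2 0.57 ± 0.48 SE, adjusted p = 0.386).

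**Figure D2:**
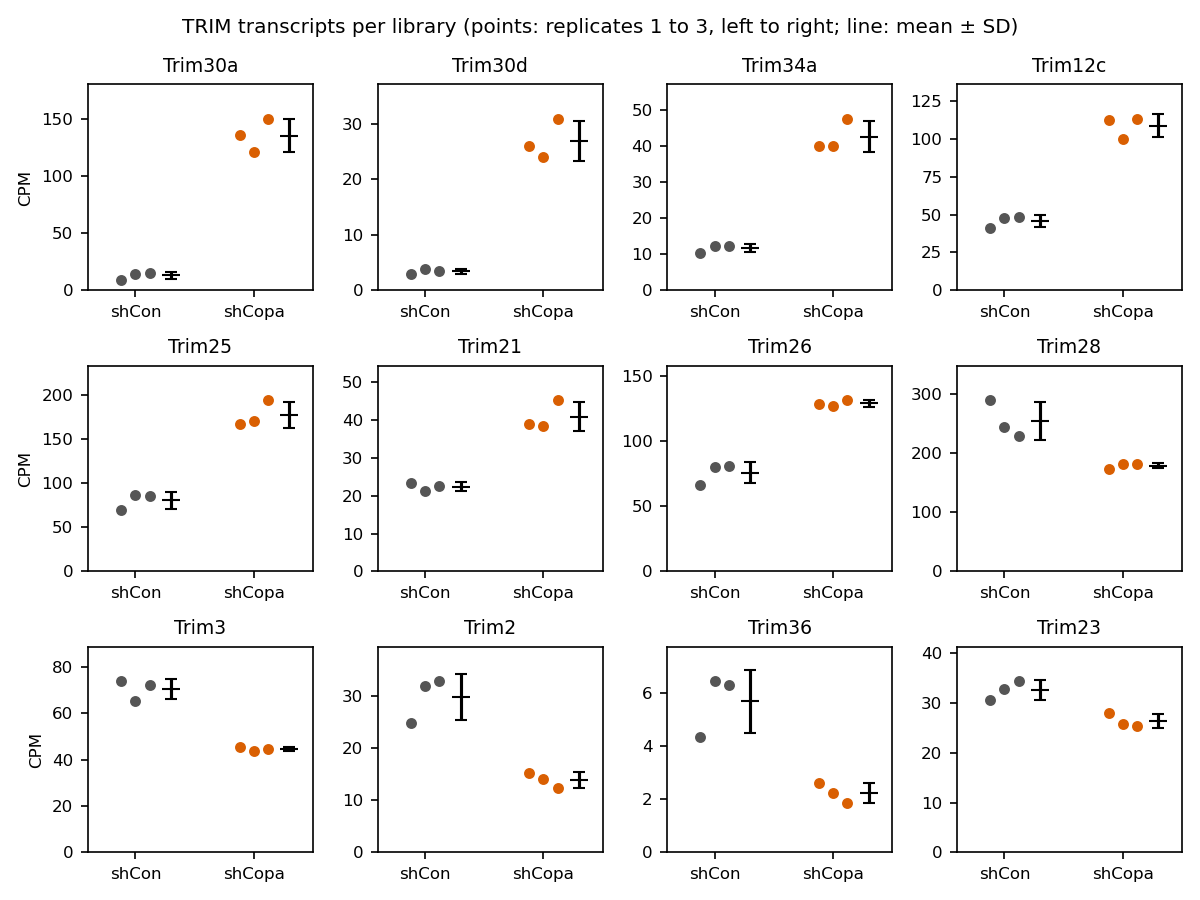
CPM on TMM-scaled library sizes of 12 TRIM members in each library (points, replicates 1 to 3 from left to right; line and bar, mean ± SD, n = 3; vertical axes start at 0 and differ between panels). In the first 7 panels every shCopa library lies above every shCon library, as for Trim30a at 121 to 150 against 9.48 to 15.2 CPM, and in the last 5 every shCopa library lies below.

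Copies this similar can share reads. Deposited values that are not whole occurred in all 6 libraries for Trim30a, Trim30d, Trim34a, Trim34b, Trim12a, Trim12c and Trim5, and also for 4 members with little sequence in common with other genes, Trim7, Trim39, Trim24 and Trim16. Of the stretches of 50 bases in the GENCODE M21 transcripts of Trim34b, 56.8% also occurred in Trim34a, and 39.8% of those of Trim34a in Trim34b. The share found in another gene was 36.3% for Trim5 and 33.0% for Trim12c, mostly in each other, 10.4% for Trim12a, 7.49% for Trim30d and 5.98% for Trim30a. The split of reads between such copies is uncertain, whereas a sum over copies does not depend on it. Trim5, Trim12a and Trim12c together were at 96.2, 116 and 122 CPM in shCon against 221, 197 and 217 CPM in shCopa, a ratio of 1.90. Trim34a with Trim34b went from 10.7, 12.8 and 13.1 CPM to 40.9, 40.5 and 48.6 CPM (ratio 3.55), and Trim30a with Trim30d from 12.4, 18.4 and 18.7 CPM to 162, 145 and 181 CPM (ratio 9.84). None of these sums overlapped between the groups. Of the stretches of Trim34a, 20.2% lie opposite another gene's transcript, and the strand setting of the counting is not given in the sources used here.

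Along chromosome 7, in the gene order of RefSeq (GRCm38.p6), the run from Trim6 to the pseudogene Trim30e-ps1 holds 21 annotated genes, 11 of them protein coding. Of these, 10 are TRIM genes, in the order Trim6, Trim34a, Trim5, Trim12a, Trim34b, Trim12c, Trim30b, Trim30c, Trim30a and Trim30d. None of the 5 nearest tested genes on either side rose. The nearest 5 on the Trim6 side, 4 olfactory receptor genes and Usp17ld, did not pass, with the closest, Olfr639, at 0.29 ± 0.20 SE (log2). Some neighbours had few counts and wide errors, so a rise of the size of that of Trim12a could be missed. Over all libraries Usp17ld had 50 counts (log2 -0.74 ± 0.79 SE), Usp17la 87 (-0.35 ± 0.47 SE) and Olfr635 273 (0.65 ± 0.46 SE). On the Trim30 side Usp17la, Fam160a2 and Cavin3 did not pass, and the acid sphingomyelinase gene Smpd1 (log2 -0.89 ± 0.12 SE) and Apbb1 (log2 -1.07 ± 0.15 SE) fell. Chromosome 7 as a whole holds 14 members, of which 8 rose and 2 fell, and 7 of the 8 rises are those of the run. Chromosome 11 holds 9 members, of which 3 rose and 0 fell. Over all genes 18.2% rose and 18.4% fell. The count for chromosome 7 is thus mostly that of the run and adds little to it.

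**Figure D3:**
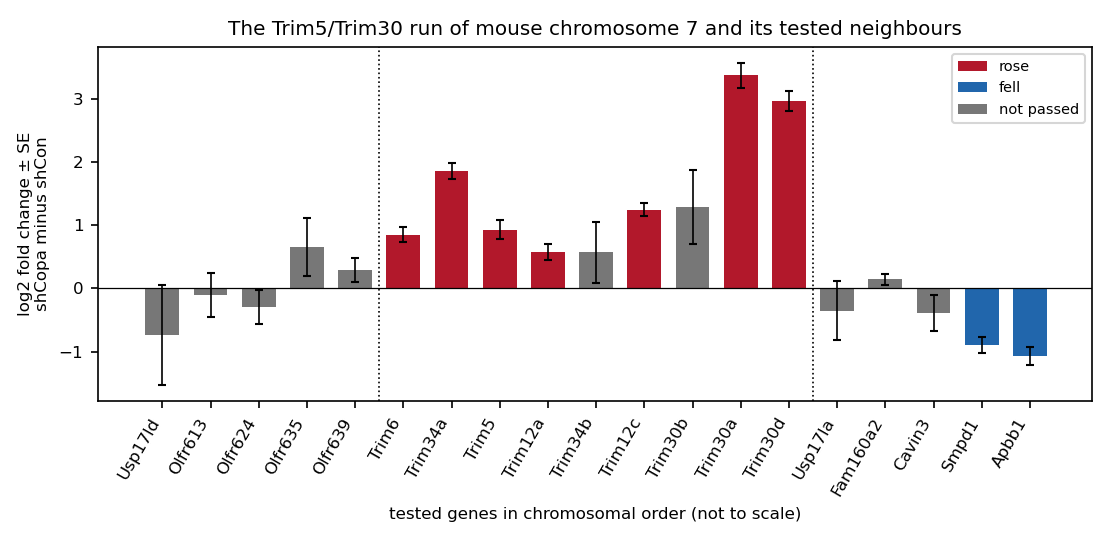
Log2 fold change (shCopa minus shCon; bars, SE) of the 9 tested TRIM genes of the chromosome 7 run, between the dotted lines, and of the 5 nearest tested genes on either side, in chromosomal order and not to scale. The bars of the run are all above 0, from 0.57 for Trim34b to 3.37 for Trim30a, and 7 of them passed the test. No neighbour rose, though some had few counts and wide errors, as Olfr635 at 0.65 ± 0.46 SE.

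Of the 6 PRY-SPRY members outside the run that are on the interferon or antiviral list, Trim25, Trim21 and Trim26 rose, and Trim14, Trim65 and Trim69 did not pass. Trim25 (ENSMUSG00000000275), which ubiquitylates the RNA sensor RIG-I and is a cofactor of the antiviral protein ZAP, was at 69.8, 86.5 and 84.9 CPM in shCon against 167, 171 and 194 CPM in shCopa. This was a 2.20-fold rise (log2 1.14 ± 0.12 SE, adjusted p = 0.000428), with the groups well separated. Trim21, a cytosolic receptor for the Fc part of antibodies, went from 23.4, 21.3 and 22.7 CPM to 39.0, 38.5 and 45.4 CPM (1.82-fold, log2 0.87 ± 0.11 SE, adjusted p = 0.000828). Trim26, a ligase linked to the control of Irf3, went from 66.4, 79.9 and 80.8 CPM to 128, 126 and 131 CPM (1.70-fold, log2 0.77 ± 0.10 SE, adjusted p = 0.00125). For both, all shCopa libraries lay above all shCon libraries.

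The other members of that list outside the run did not pass. Trim56, a ligase that acts on the cGAS-STING pathway, was at 90.8, 124 and 124 CPM in shCon against 130, 118 and 125 CPM in shCopa, so that only shCon 1 was low (log2 0.14 ± 0.14 SE, adjusted p = 0.444). Trim14, a RING-less adaptor of Mavs at mitochondria, had 21, 3 and 18 counts in shCon against 23, 25 and 17 in shCopa, which overlap (log2 0.69 ± 0.57 SE, adjusted p = 0.386); 33.9% of its stretches of 50 bases lie opposite another gene's transcript. Trim65, a ligase of the sensor Mda5, had a log2 fold change of 0.23 ± 0.15 SE (adjusted p = 0.281), and Trim69, which has antiviral action on microtubules, one of 0.99 ± 0.42 SE on 4 to 12 counts a library (adjusted p = 0.108).

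Among the remaining PRY-SPRY members, Trim35, Trim41 and Trim17 rose. Trim35, one of the most abundant members and reported to degrade Irf7, was at 238, 232 and 226 CPM in shCon against 273, 298 and 290 CPM in shCopa (1.24-fold, log2 0.31 ± 0.08 SE, adjusted p = 0.0235). Trim41 went from 52.5, 44.1 and 43.6 CPM to 60.7, 64.6 and 61.2 CPM (1.33-fold, adjusted p = 0.0170). Trim17, known from neurons, rested on 8, 5 and 11 counts in shCon against 26, 19 and 14 in shCopa. Of its shCon libraries only shCon 3 reached 10 counts, so Trim17 met the count rule through its shCopa libraries. The pooled ratio for Trim17 was 2.60 (exact 95% interval 1.59 to 4.36, counting error only; adjusted p = 0.0331), and 17.7% of its stretches of 50 bases also occur in Hist3h2a. Leaving out any 1 library other than shCon 1 ended the calls of Trim35 (adjusted p = 0.0568 to 0.118) and Trim41 (adjusted p = 0.0561 to 0.0808), and leaving out shCon 2 or any 1 shCopa library ended that of Trim17 (adjusted p = 0.0633 to 0.128).

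The other classes held 4 more rises. Trim8, which has no C-terminal domain of the named types and acts in TNF and JAK-STAT signalling, was at 114, 96.9 and 96.0 CPM in shCon against 136, 144 and 133 CPM in shCopa (1.34-fold, log2 0.43 ± 0.10 SE, adjusted p = 0.0137). Trim13, an endoplasmic reticulum membrane ligase of protein quality control, went from 5.43, 5.84 and 6.25 CPM to 7.79, 8.73 and 8.50 CPM (1.43-fold, adjusted p = 0.0220). Trim45, a member with a filamin domain, went from 3.62, 3.18 and 2.34 CPM to 5.53, 5.49 and 4.65 CPM (1.72-fold, adjusted p = 0.0221). In none of these did the groups overlap. The calls ended without shCon 2, shCon 3, shCopa 1 or shCopa 2 for Trim8 (adjusted p = 0.0506 to 0.0712) and Trim45 (adjusted p = 0.0534 to 0.0821), and without shCon 2, shCopa 2 or shCopa 3 for Trim13 (adjusted p = 0.0644 to 0.0914).

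Trim71 (ENSMUSG00000079259), an NHL-repeat repressor of mRNAs in stem cells and a target of the microRNA let-7, entered through its shCopa libraries, so its fold, its p and its place in the family are conditioned on being high there. It had 0, 3 and 1 counts in shCon against 39, 20 and 32 in shCopa, which is 0.0566 CPM against 1.40 CPM on average. The pooled ratio was 24.0, with an exact 95% interval for counting error of 9.07 to 90.0, and the fitted log2 fold change was 4.47 ± 0.68 SE (adjusted p = 0.00219). Without shCon 2, which holds most of the control counts, the fit gave 5.68. Even in shCopa this remained a low level, and single markers of other cell types also rose from near 0. The 4 endothelial markers summed to at most 0.232 CPM in shCon and 1.55 to 3.59 CPM in shCopa, mostly Kdr (0.0745 to 1.87 CPM on average), with Cdh5 and Tek near 0. The 4 skeletal muscle markers summed to at most 0.139 CPM and 0.531 to 1.06 CPM, mostly Acta1 (0.0608 to 0.687 CPM), with Myog, Myod1 and Ckm at or near 0, and the leukocyte marker Ptprc rose from 0.0280 to 1.09 CPM. The part of such low-level transcripts in the rise of Trim71 was not tested.

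The 5 members that fell were Trim36, Trim2, Trim3, Trim28 and Trim23, from 4 classes. Trim36, a COS-box ligase that associates with microtubules, was at 4.32, 6.44 and 6.29 CPM in shCon against 2.61, 2.25 and 1.87 CPM in shCopa. It fell to 39.6% of control (log2 -1.34 ± 0.23 SE, adjusted p = 0.00373). Trim2 (ENSMUSG00000027993), an NHL-repeat ligase of neurofilament light chain, went from 24.7, 31.8 and 32.8 CPM to 15.2, 14.1 and 12.2 CPM, or 46.6% of control (log2 -1.10 ± 0.15 SE, adjusted p = 0.00133). Its relative Trim3 went from 74.0, 65.5 and 72.0 CPM to 45.4, 43.8 and 44.7 CPM, or 63.3% of control (log2 -0.66 ± 0.09 SE, adjusted p = 0.00121). All shCopa libraries lay below all shCon libraries for each of these genes.

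Trim28 (ENSMUSG00000005566), also called KAP1, the corepressor that KRAB zinc finger proteins bring to DNA and that keeps retroelements silent, was at 290.3, 244 and 229 CPM in shCon against 174, 181 and 182 CPM in shCopa. It fell to 70.2% of control (log2 -0.51 ± 0.11 SE, adjusted p = 0.00903). The highest control value was that of shCon 1, and without it the log2 fold change was -0.41. Offsets for gene length and GC content, a setting chosen after seeing the data, brought it to -0.30, still past the threshold. Trim23, a ligase with an ARF GTPase domain found on Golgi and lysosomal membranes, went from 30.5, 32.8 and 34.4 CPM to 28.1, 25.7 and 25.4 CPM. This was 81.0% of control (log2 -0.30 ± 0.10 SE, adjusted p = 0.0448), and the call ended when any 1 library other than shCon 1 was left out (adjusted p = 0.0785 to 0.160), with upper-quartile factors (adjusted p = 0.0660) and with library totals (adjusted p = 0.0922).

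**Figure D4:**
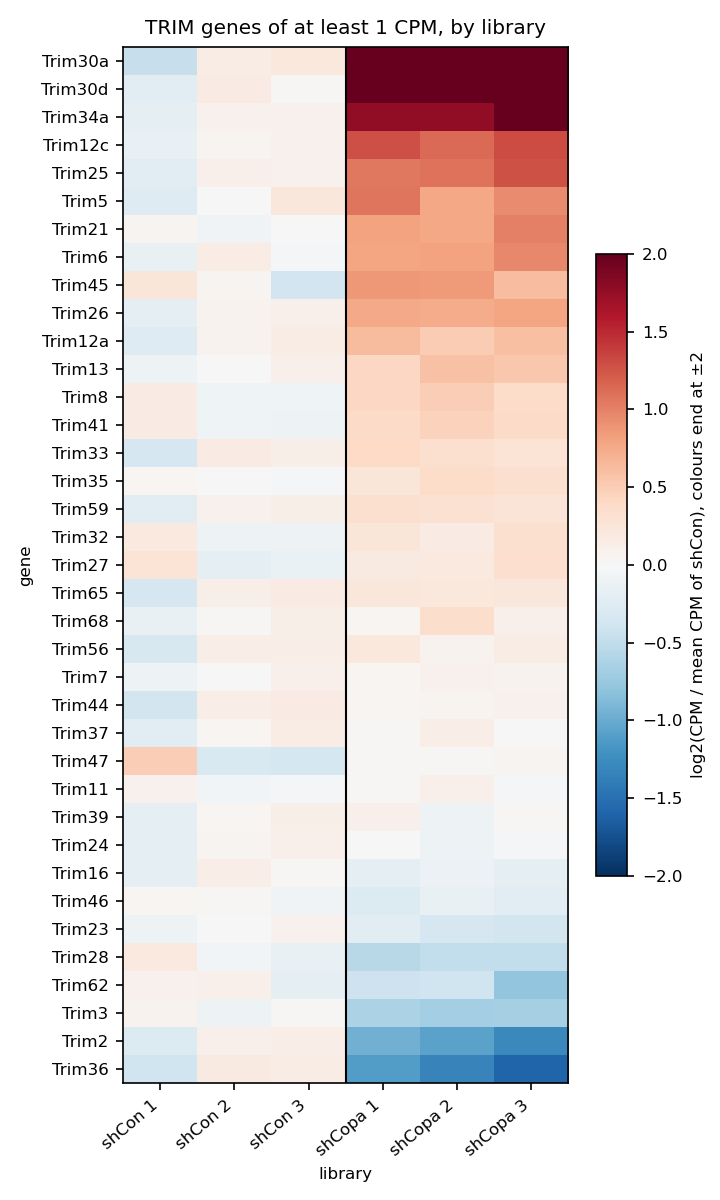
Level of the 37 TRIM members of at least 1 CPM on average in each library, as log2 of CPM over the mean of the 3 shCon libraries (red, above; blue, below; colours end at 2 in either direction), ordered by fold change. In the 3 top genes every shCopa library lies above the shCon mean and in the 3 bottom genes below it, and shCon 1 departs from shCon 2 and shCon 3, as for Trim47, where it is 1.77 times their mean.

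Of the 22 members that did not pass, several had groups that did not overlap. Trim33, a chromatin ligase of Smad signalling, was at 41.2, 58.7 and 56.7 CPM in shCon against 68.8, 65.0 and 62.9 CPM in shCopa (log2 0.33 ± 0.14 SE, adjusted p = 0.111), and Trim59, a membrane-anchored member, had a log2 fold change of 0.29 ± 0.12 SE (adjusted p = 0.0850). Trim62 was at 5.25, 5.32 and 4.31 CPM in shCon against 3.72, 3.76 and 2.88 CPM in shCopa (log2 -0.52 ± 0.19 SE, adjusted p = 0.0637), and Trim46, a microtubule organiser of the axon, at -0.22 ± 0.10 SE on the log2 scale (adjusted p = 0.133). Trim66, the testis member of the chromatin class, had 1, 14 and 1 counts in shCon against 14, 22 and 11 in shCopa (log2 1.60 ± 0.82 SE, adjusted p = 0.167). Of the fits with 1 library left out, it passed in the one without shCon 2 (log2 3.86, adjusted p = 0.00853). Leaving out shCon 1 brought 6 members past the threshold. Trim33 (log2 0.18), Trim59 (0.19), Trim32 (0.35), Trim27 (0.40) and Trim47 (0.36) were then higher and Trim16 (-0.24) lower.

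Trim47 gained its call both without that library and under offsets for gene length and GC content. It was at 99.0, 56.9 and 54.7 CPM in shCon against 71.2, 71.4 and 72.6 CPM in shCopa, so that the control libraries lay on both sides of the others. With all libraries the log2 fold change was 0.03 ± 0.22 SE (adjusted p = 0.923), and without shCon 1 it was 0.36 (adjusted p = 8.26e-05) and with the offsets 0.51 (adjusted p = 0.00330). In the other alternatives it did not pass (log2 -0.13 to 0.09). Trim44, a RING-less member, showed the opposite pattern, at 199.7, 283 and 289.5 CPM in shCon against 266, 268 and 273 CPM in shCopa (log2 0.06 ± 0.15 SE). The rest, Trim7, Trim11, Trim24, Trim27, Trim32, Trim37, Trim39, Trim16 and Trim68, overlapped between the groups, with log2 fold changes from -0.16 to 0.25. Of the members averaging at least 1 CPM, 15 rose, 5 fell and 17 did not pass. Of the 7 under 1 CPM, 2 rose and 5 did not pass.

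Scaled by exon length, the levels can be compared between genes. On this scale, in TPM (counts per exon length, scaled to the same total in each library), Trim28 was the most abundant TRIM transcript of the control cells at 204 ± 7.54 (SD, n = 3), followed by Trim35 at 168 ± 11.87 and Trim44 at 155 ± 42.3. The ranks of Trim35 and Trim44 in shCon do not differ beyond their spread. In shCopa the order was Trim35 at 222 ± 7.34, Trim44 at 170.0 ± 1.00 and Trim28 at 153 ± 1.84. Trim28 made up 14.2% of the summed TRIM level in shCon and 7.89% in shCopa. Trim30a went from 10.8 ± 3.40 TPM, rank 29 of 44, to 118 ± 12.2 TPM, rank 5, just above Trim25 at 110 ± 7.88 and Trim12c at 104 ± 7.45, which are within their spread of each other. Trim3 moved from rank 6 to rank 19. Trim71, at 0.0214 TPM, had the lowest level in shCon and stayed among the 3 lowest members in shCopa, at 0.537 TPM.

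**Figure D5:**
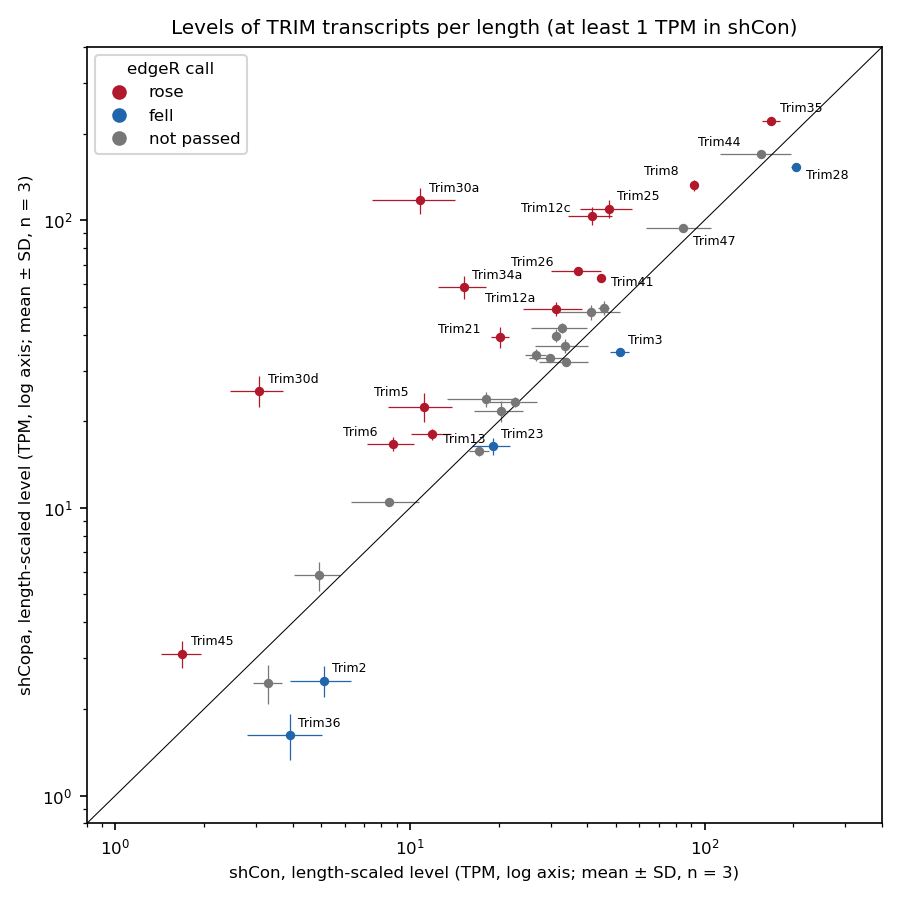
Length-scaled level (TPM, log axes; mean ± SD, n = 3) of the 37 TRIM members of at least 1 TPM in shCon, shCon on the horizontal and shCopa on the vertical axis; the line marks equal levels and colours the edgeR call. Trim30a, Trim30d and Trim34a lie farthest above the line, Trim36 and Trim2 farthest below it, and Trim28, Trim35 and Trim44 are the most abundant in both groups.

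The 24 genes under the count rule show which TRIM genes these cells express little or not at all. Trim58, Trim9, Trim29, Trim50 and Trim42 had no counts in any library, and with 3 counts as the floor this allows up to 0.123 to 0.152 CPM a library. Just outside the rule lay Trim15, with 5, 9 and 6 counts in shCon against 9, 16 and 14 in shCopa, and just inside it Trim69 and Trim71, each with at least 10 counts in exactly 3 libraries, all of shCopa. The muscle ligase Trim63, also called MuRF1, had 1, 0 and 0 counts in shCon against 4, 3 and 6 in shCopa. Trim10, an erythroid member, had 1, 0 and 0 counts and 10, 9 and 2 counts. Trim38, an antiviral ligase, had at most 5 counts in any library.

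A list of TRIM genes that carry other symbols was read beside the members. Pml, the organiser of nuclear bodies and itself interferon-induced, rose from 69.8 to 95.6 CPM on average (log2 0.45 ± 0.14 SE, adjusted p = 0.0368). Mid1, a microtubule-bound ligase, rose from 33.9 to 51.7 CPM (log2 0.61 ± 0.15 SE, adjusted p = 0.0166). Its paralog Mid2 was at 51.4 and 66.8 CPM, which did not pass (log2 0.38 ± 0.18 SE, adjusted p = 0.140), and Mefv was not tested, at 0.0286 CPM in shCon and 0 in shCopa.

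Of 15 substrates and partners of the antiviral TRIM ligases, 8 rose (53.3%), 2 fell (13.3%) and 5 did not pass (median log2 fold change 0.39), against 18.2% and 18.4% of all genes. Irf7, the transcription factor that amplifies interferon transcription, rose from 10.4 to 60.5 CPM (log2 2.55 ± 0.12 SE, adjusted p = 3.44e-05). Tmem173, which encodes STING, rose by 1.47 ± 0.15 SE on the log2 scale (adjusted p = 0.000354). Ddx58, the gene of RIG-I and the substrate of Trim25, rose from 73.4 to 159 CPM (log2 1.12 ± 0.16 SE, adjusted p = 0.00151), and Rnf135, the other RIG-I ligase, from 21.7 to 37.4 CPM (log2 0.79 ± 0.09 SE, adjusted p = 0.000682). Tab2, one of the substrates of Trim30a, fell from 178 to 127 CPM (log2 -0.48 ± 0.13 SE, adjusted p = 0.0215), and Tab3 did not pass.

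The genes that work with Trim28 in silencing gave shares of calls near or below those of all genes. Of 14, 3 rose (21.4%, against 18.2% of all genes), 1 fell (7.14%, against 18.4%) and 10 did not pass (median 0.10). Setdb1, the histone methyltransferase that Trim28 recruits, rose from 31.3 to 48.1 CPM (log2 0.62 ± 0.12 SE, adjusted p = 0.00655). Mphosph8, a subunit of the HUSH silencing complex, rose from 31.2 to 42.6 CPM (adjusted p = 0.0166), and Zfp809, a KRAB zinc finger protein that silences retroviruses, from 57.9 to 82.1 CPM (adjusted p = 0.0195). Cbx1, one of the heterochromatin proteins bound by Trim28, fell from 76.3 to 61.4 CPM (log2 -0.31 ± 0.08 SE, adjusted p = 0.0226). Without shCon 1 the counts in this list were 4 higher and 4 lower, at a background of 28.3% and 27%.

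The enzymes that load ubiquitin for TRIM ligases gave 2 calls. Of 12, none rose and 2 fell (16.7%, near the 18.4% of all genes), with a median of -0.07. At an unadjusted p under 0.05, 3 of the 12 differed, as did 6911 of all 14807 genes. Without shCon 1, 2 rose and 2 fell, at a background of 28.3% higher and 27% lower. Neither count shows a change particular to these enzymes. Ube2w, the E2 that places the first ubiquitin on Trim5 and Trim21, fell from 65.2 to 25.9 CPM (log2 -1.33 ± 0.10 SE, adjusted p = 0.000114). Ube2v1, the partner of Ube2n in building the chains that these ligases use in signalling, fell from 221 to 150 CPM (log2 -0.55 ± 0.09 SE, adjusted p = 0.00352), whereas Ube2n, at 189 and 175 CPM, did not pass (adjusted p = 0.309).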

How the data were processed

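RNA-seq of 6 libraries was used; groups and replicate numbers come from the sample titles. Per the labels' protocols, TRIzol RNA was made into mRNA libraries and sequenced in pairs. The authors deposited estimated counts for each gene, not whole in 10.6% to 11.9% of a library's values. The tools named by the submitters' processing notes are HISAT2 2.0.5, Trimmomatic, featureCounts, HTSeq and DESeq2, with build GRCm39; neither the one that gave the estimated counts nor its strand setting is given in the sources used here. No genome of that build was used, so gene coordinates are printed only for RefSeq promoter sequences (GRCm38.p6).

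Symbols came from GENCODE M21 for 52081 of 55414 identifiers; the other 3333 held 0.201% to 0.464% of counts. For 67 symbols with several identifiers, the one with the higher mean count carried the symbol. Rounded counts were fitted with edgeR 4.0.16 (R 4.3.3): TMM factors, filterByExpr, robust quasi-likelihood F test, Benjamini-Hochberg adjustment over 14807 genes, threshold 0.05. "Rose" and "fell" mean that this threshold was passed. CPM uses TMM-scaled library sizes; SE is the log2 fold change over the root of F; TPM divides counts by the union of GENCODE exons, which understates genes with long unused exons. Promoters were searched in Python 3.11.15 and aligned with Biopython 1.88. Intervals and floors cover counting error only.

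Counts were simulated for the 14807 genes of this comparison, with 67 genes changed 1.5-fold, 67 changed 2-fold and 66 changed 4-fold. Of these changes 19.4%, 70.2% and 93.9% were recovered, with 13 false among 135 calls. Far fewer genes were changed there than the 5411 called in the data, and the adjustment of p depends on that number. These shares therefore do not give the recovery in the data.

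Members and lists were chosen with earlier results of these data known. By the naming rule every member is accounted for, called members with separated groups get the value in each library, full statistics go to the 5 largest rises and falls and to Trim21, Trim25, Trim28, Trim56, Trim14 and Trim30a, and each list names at most 4 genes with the smallest adjusted p, the list of other symbols all of its genes; Tab3, Zfp809, Cbx1, Trim5, Trim6, Trim12a, the full statistics of further members, the neighbours of the chromosome 7 run, Ube2n and the genes under the count rule were added after seeing values. Alternatives were RLE, upper-quartile and no scaling factors, 3 other filters, DESeq2 1.42.0, limma-voom (limma 3.58.1), a threshold of 0.01, a replicate block, each library left out, and offsets for length and GC content.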

Additional observations from a re-analysis of the deposited data

How the results depend on the processing

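Over 17 alternatives, 15 of the 22 called members kept direction and call in each that gave a value. The other 7, Trim17, Trim45, Trim13, Trim8, Trim41, Trim35 and Trim23, lost the call in at least 1, and no called member reversed. At an adjusted p under 0.01, 11 members were higher, and 7 genes of the partner lists were higher and 2 lower, against 17 members, 13 list genes and 5 list genes. Leaving out 1 library gave 11 to 22 members higher (fewest without shCopa 2, most without shCon 1) and 4 to 6 lower, 7 to 19 list genes higher and 2 to 8 lower, with 8 lower without shCon 1 and 2 without shCon 2 or any one shCopa library. With length and GC offsets, 8 list genes were lower. Except for the fit without shCon 1, these counts are given without those of all genes. They therefore show no change particular to the members or lists. Same-numbered libraries did not deviate together (correlations of -0.162, -0.058 and -0.114), so the numbers were not taken as pairs; with the replicate block, 13 members were higher and 4 lower, 2 list genes were lower, and all genes gave 1964 higher and 1939 lower against 2691 and 2720.

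The log2 sign reversed only among members that did not pass. Leaving out 1 library gave a range of -0.0941 (without shCon 1) to 0.143 for Trim44, -0.0442 (without shCon 1) to 0.119 for Trim37, -0.0733 (without shCon 1; also below 0 without shCopa 1) to 0.0673 for Trim39, -0.122 to 0.0029 (without shCon 3) for Trim24, -0.00565 (without shCopa 2) to 0.0699 for Trim11 and -0.131 (without shCon 3; also below 0 without shCon 2) to 0.359 for Trim47. With no filter Trim39 was at -0.0196 and Trim11 at -0.00051, and with library totals Trim24 was at 0.0105. The offsets gave -0.0240 for Trim7, -0.0336 for Trim44, -0.0604 for Trim37 and -0.0304 for Trim39. The cause was not tested. Depth limits the 7 members under 1 CPM most, and with 3 libraries a group differences under 2-fold can be missed. Without shCon 1, all genes gave 4317 higher and 4122 lower.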
